A study of Homo sapiens with 12 samples.

Results

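The effect of withaferin A (WA) was compared between 2 human multiple myeloma cell lines, MM1S, which is sensitive to glucocorticoids, and MM1R, which is resistant to them. The comparison takes all 12 of the 12 samples of the series and asks, for each gene, whether the change from untreated (UT) to WA in MM1R differs from the change in MM1S. Total RNA was sequenced and counted per gene in 3 cultures of each of 4 groups: MM1S UT, MM1S treated with 1 µM WA for 3 h, MM1R UT and MM1R treated with 1 µM WA for 3 h. The cultures carry passage numbers 16, 22 and 23 in MM1S and 4, 6 and 7 in MM1R, and the UT and the WA culture of a passage form a pair. The lines share no passage number, each is a single line, and both derive from the same patient, so that line and passage cannot be told apart and the p-values measure only the spread between cultures of these lines.

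WA is a steroidal lactone from the plant Withania somnifera that reacts with cysteine residues of many proteins. Misfolded or modified proteins release the transcription factor HSF1, which binds heat shock elements in promoters and induces chaperones, while modified KEAP1 releases NRF2, which induces antioxidant enzymes such as HMOX1. Such stress also reaches the p53 network, in which p53 induces arrest and death genes together with its own inhibitor MDM2, and the immediate early genes, a fast layer of transcription factors of the FOS, JUN and EGR families.

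The table lists 43735 genes, of which 26497 had a read and 14085 had enough reads to be tested. Total counts lay between 17625110 and 19368343 per culture. All 10 of 10 plasma cell markers reached 1 CPM (reads per 1e6 reads of the library after TMM scaling) or more in every culture, with a summed level between 5310 and 7000 CPM. The markers of mature B cells summed to at most 42 CPM, those of T cells to at most 11.9 CPM and those of myeloid cells to at most 2.31 CPM. The stromal and epithelial markers summed to between 0.93 and 3.23 CPM in untreated cultures and to between 2.67 and 18.8 CPM after WA, with 2 or 3 of the 6 genes at 0 in each group, a shift seen in both lines whose part in the results was not tested. A bulk level does not tell a change in every cell from a change in some cells.

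Most genes that WA changed in MM1S changed in the same direction in MM1R. In MM1R 4147 genes (29.4% of those tested) changed, 2103 higher and 2044 lower, and in MM1S 3479 (24.7%) changed, 1816 higher and 1663 lower, at a Benjamini-Hochberg adjusted p of 0.05 in edgeR's quasi-likelihood test, with passage as block within line. Of these, 2833 genes (20.1%) changed in the same direction in both lines, 1440 higher (10.2%) and 1393 lower (9.89%), which is 68.3% of the genes of MM1R and 81.4% of those of MM1S. A further 1313 genes (9.32%) passed in MM1R and not in MM1S, and 645 (4.58%) in MM1S and not in MM1R, which does not show that their responses differ. Only 1 gene (0.0071%) was called in opposite directions. The counts depend on single passages, since 1321 genes were called in MM1S without passage 16 and 1676 without passage 23, and 2551 in MM1R without passage 6 and 2698 without passage 7.

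The difference between the lines was tested directly as (MM1R WA minus UT) minus (MM1S WA minus UT), so that a positive value stands for a higher response in MM1R. No gene passed an adjusted p of 0.05 by edgeR's quasi-likelihood test (0 of 14085, 0%), with 302 genes (2.14%) at an unadjusted p under 0.05, 172 higher (1.22%) and 130 lower (0.923%) in MM1R. The smallest adjusted p was 0.193. DESeq2 with the same block called 6 genes (0.0426%), 5 lower and 1 higher in MM1R, and limma voom called 0. Without passage 22, edgeR called 1 gene, PHLDA3.

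A missed threshold does not show that the lines responded alike, so the interval of the difference was read for each gene. Its median half-width over all genes was 0.40 on the log2 scale, and for 10739 genes (76.2%) the whole 95% interval lay within −1 and 1. The median difference was −0.01, with percentiles 5 and 95 at −0.41 and 0.54. Across the 12322 genes with a mean of at least 1 CPM, the fold changes of the lines correlated with a Pearson's r of 0.90, a description over genes that share the libraries of each line.

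**Figure D1:**
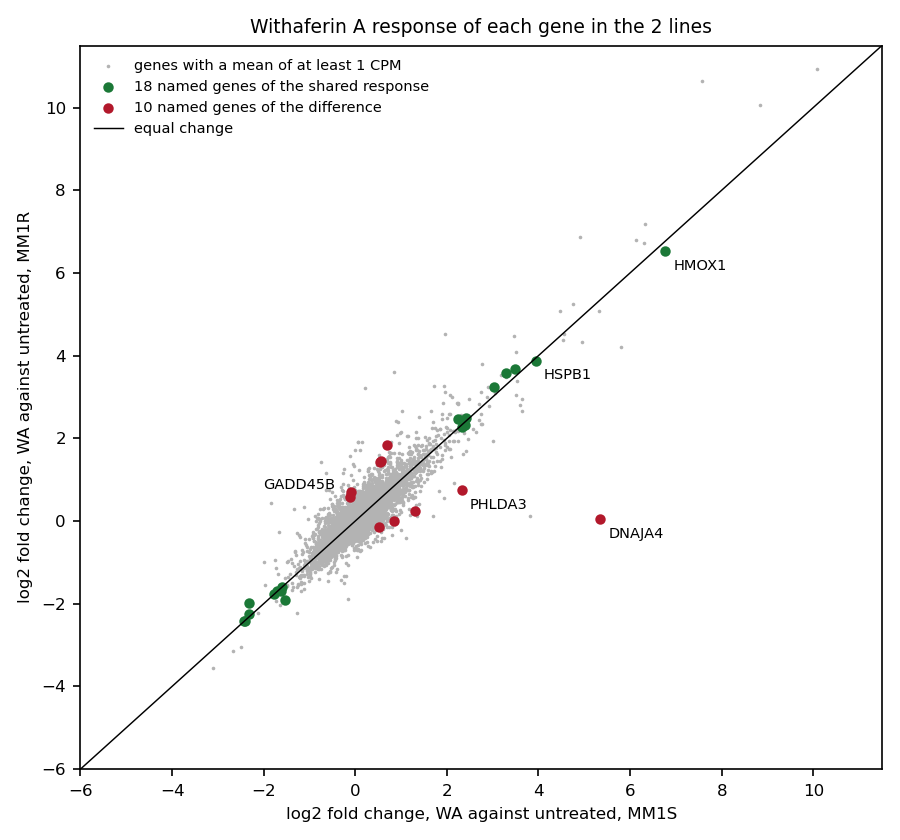
Log2 fold change of WA against untreated in MM1S (x axis) and in MM1R (y axis) for genes with a mean of at least 1 CPM (grey), 18 named genes of the shared response (green) and 10 named genes of the difference (red), with the line of equal change. Most points lie along the line, HMOX1 near 6.76 and 6.53, while DNAJA4 lies at 5.34 in MM1S and 0.05 in MM1R.

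The 10 genes named for the difference are the 5 with the smallest p in each direction at a mean of at least 1 CPM. None of them passed the test of edgeR. They were picked by this difference, so that their pair changes below are a description. Over all tested genes, the pair changes of the lines did not overlap for 7.1%. Those with the lower response in MM1R are PHLDA3, which restrains AKT at the membrane, MDM2, the ubiquitin ligase that degrades p53, EDA2R, a receptor of the TNF receptor family, TNFRSF10B, the death receptor for TRAIL, and DNAJA4, a co-chaperone of HSP70. MDM2 and TNFRSF10B are members of the list of p53 targets. In the list of genes with the higher response in MM1R stood GADD45B, a stress sensor that activates MAP kinase cascades.

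PHLDA3 lies on chr1:201433406-201438365 of GRCh37, on the minus strand. In MM1S its level was 2.02, 3.31 and 3.58 CPM in untreated cultures and 15.5, 10.5 and 19.1 CPM after WA. In MM1R it was 16.6, 25.0 and 34.3 CPM untreated and 27.9, 41.7 and 57.2 CPM after WA. All pairs rose, and the untreated MM1R cultures (from 16.6 CPM) overlapped the level of MM1S after WA (up to 19.1 CPM). The log2 fold change was 2.32 ± 0.20 (SE, n = 3) in MM1S and 0.74 ± 0.15 in MM1R, with adjusted p-values of 4.4e-06 and 0.0022 by edgeR. The difference was −1.58 ± 0.25 (95% interval −2.11 to −1.05), with an adjusted p of 0.19 by edgeR and 4.4e-05 by DESeq2. Without passage 22, the difference was −1.90 with an adjusted p of 0.022 by edgeR. Over all alternatives run, the difference lay between −1.90 and −1.32 and the adjusted p between 4.4e-05 and 1.0.

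MDM2 lies on chr12:69201957-69239324, on the plus strand. In MM1S it was at 254, 243 and 308 CPM untreated and at 333, 367 and 462 CPM after WA. The MM1R cultures were at 475, 553 and 619 CPM untreated and at 436, 505 and 553 CPM after WA. It was higher with WA in 3 of 3 pairs of MM1S and lower in 3 of 3 pairs of MM1R, and the changes did not overlap. MDM2 rose in MM1S by 0.52 ± 0.08 on the log2 scale (adjusted p = 0.00035, edgeR), and its change in MM1R, −0.14 ± 0.08, did not pass (adjusted p = 0.17). The difference was −0.66 ± 0.11 (95% interval −0.90 to −0.42), with an adjusted p of 0.19 by edgeR and 0.00015 by DESeq2.

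The same form was seen for the receptors EDA2R (chrX:65815479-65859140, minus strand) and TNFRSF10B (chr8:22877646-22926544, minus strand). EDA2R was at 12.8, 13.6 and 15.3 CPM in untreated MM1S and at 30.7, 32.3 and 40.4 CPM after WA. In MM1R it was at 28.9, 24.9 and 25.1 CPM untreated and at 24.3, 29.5 and 40.9 CPM after WA. The change was uniform in MM1S and mixed in MM1R, where passage 4 lay below its untreated culture and passage 7 above. EDA2R rose by 1.30 in MM1S (adjusted p = 7.9e-05, edgeR) against 0.23 in MM1R (adjusted p = 0.25), a difference of −1.07 ± 0.22 (95% interval −1.54 to −0.59, adjusted p = 0.56 by edgeR and 0.0098 by DESeq2). TNFRSF10B was at 36.3, 40.2 and 40.3 CPM in untreated MM1S and at 71.0, 57.2 and 84.8 CPM after WA. Its level in MM1R was 89.0, 74.4 and 74.6 CPM untreated and 78.1, 70.8 and 89.6 CPM after WA. The treated MM1S cultures and the MM1R cultures overlap in level. TNFRSF10B rose by 0.85 in MM1S (adjusted p = 0.00037, edgeR) against 0.00 in MM1R, a difference of −0.85 ± 0.18 (95% interval −1.23 to −0.47, adjusted p = 0.56 by edgeR and 0.0098 by DESeq2).

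**Figure D2:**
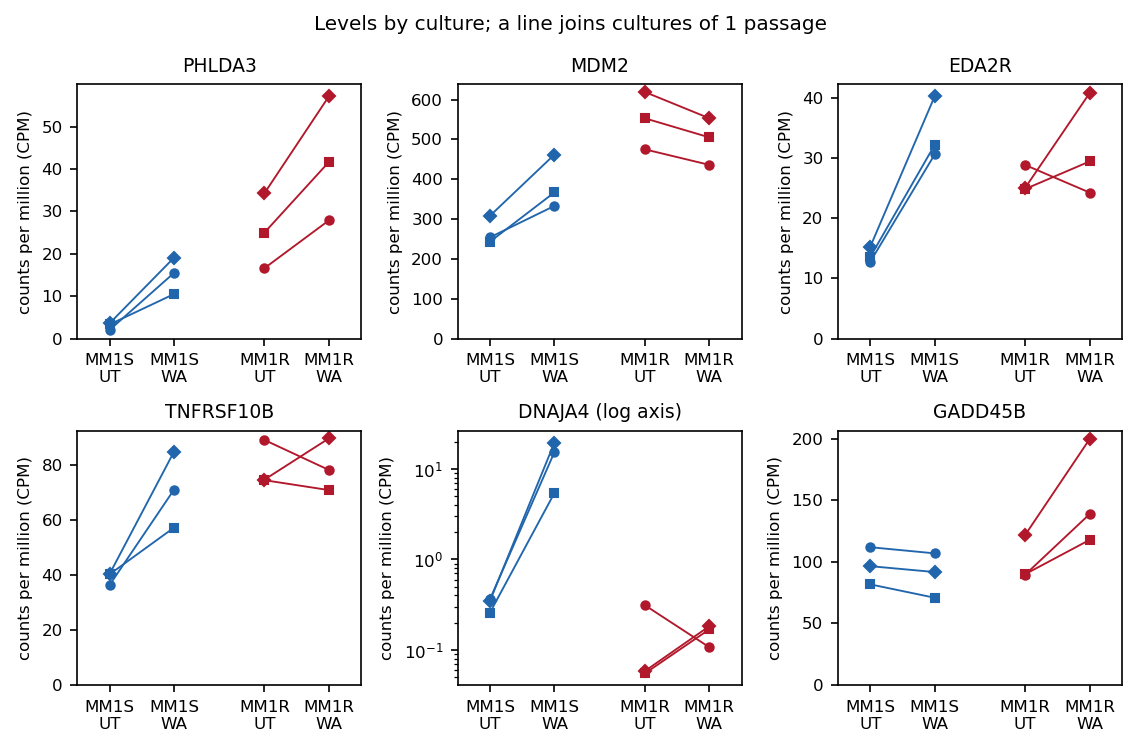
Level in CPM (y axis) of 6 genes in each culture, UT and WA, for MM1S (blue) and MM1R (red). A line joins the 2 cultures of a passage, with circles, squares and diamonds for passages 16, 22 and 23 or 4, 6 and 7, and the DNAJA4 panel has a log axis. DNAJA4 rises to between 5.44 and 19.6 CPM in MM1S and stays under 0.32 CPM in MM1R.

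DNAJA4 (chr15:78556428-78574538, plus strand) stood apart by size. In MM1S it was at 0.363, 0.258 and 0.348 CPM untreated and at 15.4, 5.44 and 19.6 CPM after WA. In MM1R it was at 0.312, 0.0549 and 0.0583 CPM untreated and at 0.107, 0.169 and 0.183 CPM after WA. All MM1S pairs rose steeply, and MM1R held 8 reads in its 3 untreated cultures together and 8 in its 3 treated ones. The read ratio of WA to untreated was 41.6 in MM1S (95% interval 26.4 to 69.4) and 1.03 in MM1R (95% interval 0.337 to 3.15), where the exact intervals cover counting error only. The fitted difference, −5.29 ± 0.92 on the log2 scale (95% interval −7.27 to −3.31), rests on these few reads of MM1R, with an adjusted p of 0.56 by edgeR and 0.00015 by DESeq2. It was −3.81 without passage 4. DNAJA4 passed the filter on reads and the mean of 1 CPM only through the treated MM1S cultures, and with at least 10 reads asked of every culture it gave no value.

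For DNAJA4 and chaperones that rose in both lines, promoters were searched for heat shock elements after the values were seen. The heat shock element is built of GAA units in alternating orientation, and the search took a pair of such units (GAANNTTC or TTCNNGAA, on both strands) in windows of 250 bases before to 50 bases after each start from RefSeq, build GRCh38.p14. Of 35116 windows, 4737 (13.5%) hold a pair. The start of DNAJA4 at chr15:78264312-78264611 (plus strand) has 2 pairs and the other 2 starts of the gene have none. The starts of DNAJB1 at chr19:14518348-14518647 (minus strand) and of HSP90AA1 at chr14:102086995-102087294 (minus strand) have 2 and 3 pairs, and that of HSPB1 at chr7:76302423-76302722 (plus strand) has 1. Of the other starts, those of DNAJB1 have 0 and 1 pairs and that of HSP90AA1 has none. A match is a description of the letters only, and HSPH1, DNAJB2 and BAG3, which rose as well, have no pair in their windows. HSPA6, HSPA8 and a start of HSPD1 have at least 1 pair, while the other start of HSPD1 has none. The pairs are in capitals, 5′ to 3′, in the sense of the gene:
DNAJA4: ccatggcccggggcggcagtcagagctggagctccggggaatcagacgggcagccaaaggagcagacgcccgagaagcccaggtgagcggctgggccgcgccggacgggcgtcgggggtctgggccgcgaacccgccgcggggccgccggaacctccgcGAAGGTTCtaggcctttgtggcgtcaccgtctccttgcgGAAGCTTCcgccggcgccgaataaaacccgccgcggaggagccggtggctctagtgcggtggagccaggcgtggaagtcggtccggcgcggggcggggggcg
DNAJB1: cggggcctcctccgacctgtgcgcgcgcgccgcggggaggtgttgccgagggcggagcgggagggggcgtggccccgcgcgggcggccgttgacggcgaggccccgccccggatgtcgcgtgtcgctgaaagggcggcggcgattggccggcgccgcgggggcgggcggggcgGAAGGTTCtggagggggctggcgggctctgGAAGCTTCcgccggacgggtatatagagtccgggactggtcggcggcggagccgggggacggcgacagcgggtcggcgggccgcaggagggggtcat
HSP90AA1: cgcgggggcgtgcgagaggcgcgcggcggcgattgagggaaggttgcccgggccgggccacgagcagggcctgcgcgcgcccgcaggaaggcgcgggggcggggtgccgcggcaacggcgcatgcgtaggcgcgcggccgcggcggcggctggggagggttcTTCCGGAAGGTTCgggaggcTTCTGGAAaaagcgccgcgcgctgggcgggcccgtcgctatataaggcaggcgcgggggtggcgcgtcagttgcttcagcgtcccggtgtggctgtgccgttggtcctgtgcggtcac
HSPB1: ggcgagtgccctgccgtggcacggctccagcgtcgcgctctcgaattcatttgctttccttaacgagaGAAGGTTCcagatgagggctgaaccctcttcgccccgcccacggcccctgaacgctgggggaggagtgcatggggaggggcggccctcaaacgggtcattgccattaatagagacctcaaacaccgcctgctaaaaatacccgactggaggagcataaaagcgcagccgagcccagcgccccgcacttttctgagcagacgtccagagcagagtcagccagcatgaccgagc

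GADD45B (chr19:2476120-2478257, plus strand) had the smallest p among the genes with the higher response in MM1R. In MM1S it was at 112, 81.8 and 96.6 CPM untreated and at 107, 70.9 and 91.8 CPM after WA. In MM1R it was at 89.7, 90.1 and 122 CPM untreated and at 139, 118 and 200 CPM after WA. GADD45B rose in MM1R by 0.58 ± 0.09 on the log2 scale (adjusted p = 0.00046, edgeR), with each of its 3 pairs above the 3 pairs of MM1S, where the change of −0.11 ± 0.09 did not pass (adjusted p = 0.37). The difference was 0.69 ± 0.13 (95% interval 0.41 to 0.97), with an adjusted p of 0.40 by edgeR and 0.0025 by DESeq2. For each of the 6 genes that DESeq2 called, the adjusted p over all alternatives ran from the DESeq2 value up to 1.0.

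The next 4 genes by p with the higher response in MM1R had an adjusted p of 1.0 for the difference by edgeR. FBXO30, a subunit of ubiquitin ligases, rose in both lines, by 1.46 in MM1R and 0.57 in MM1S (log2), and its treated cultures reached 41.4, 50.2 and 58.3 CPM in MM1R and 25.4, 34.5 and 39.6 CPM in MM1S. PPP1R26, a regulatory subunit of protein phosphatase 1, rose by 1.42 and 0.54, and the uncharacterised locus LOC105377023 by 1.84 and 0.69. F2RL3, the thrombin receptor PAR4, rose by 0.71 in MM1R, from 15.9, 11.7 and 16.7 CPM to 30.1, 22.5 and 20.1 CPM, and was at −0.10 on the log2 scale in MM1S without passing. The differences were 0.89, 0.88, 1.15 and 0.81, with unadjusted p-values of 0.0018, 0.0030, 0.0021 and 0.0020.

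The 1 gene called in opposite directions was FHL2, a LIM domain cofactor of transcription, named after its values were seen. In MM1S it was at 10.7, 6.87 and 6.46 CPM untreated and at 19.5, 8.65 and 9.01 CPM after WA, and in MM1R at 11.9, 14.9 and 14.8 CPM untreated and at 10.6, 11.3 and 9.49 CPM after WA. Each pair of MM1S rose and each of MM1R fell. The log2 fold change was 0.58 in MM1S (adjusted p = 0.012, edgeR) and −0.40 in MM1R (adjusted p = 0.047), with a difference of −0.98 ± 0.21 (95% interval −1.44 to −0.53, unadjusted p = 0.00033, adjusted p = 0.66).

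BTK, the kinase of B-cell receptor signalling that the study is about, showed no difference in response larger than its spread. In MM1R it was at 67.1, 63.2 and 61.4 CPM untreated and at 45.0, 49.1 and 40.9 CPM after WA, and in MM1S at 10.9, 8.01 and 7.76 CPM untreated and at 5.15, 7.85 and 5.62 CPM after WA. BTK fell by 0.51 on the log2 scale in MM1R (adjusted p = 0.012, edgeR) and by 0.52 in MM1S (adjusted p = 0.041). The difference was 0.01 ± 0.22 with a 95% interval of −0.48 to 0.50, so that a difference in either direction within these bounds is compatible with these cultures. Its value was −0.04 without passage 6 and −0.27 without passage 16. NR3C1, the glucocorticoid receptor, was at 14.4, 13.9 and 15 CPM in untreated MM1R and at 152, 95.5 and 89.0 CPM in untreated MM1S. Neither line changed by the test, with −0.03 in MM1R and −0.09 in MM1S and a difference of 0.06 (95% interval −0.31 to 0.42).

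Gene lists were set beside the same counts over all tested genes. The p53 targets leaned to MM1S, although the lines overlapped. The medians of their pair changes were 0.04, 0.14 and 0.19 in MM1R (passages 4, 6 and 7). In MM1S they were 0.36, 0.16 and 0.39 (passages 16, 22 and 23), so that passage 22 lay below passage 7 of MM1R. Of 24 tested members, 10 rose in MM1S and 5 in MM1R, all 5 of them among the 10, while 12.9% and 14.9% of all tested genes rose in these lines, and 1 member (ZMAT3) fell in MM1R. The median log2 fold change was 0.31 in MM1S and 0.11 in MM1R, against 0.01 in both lines over all genes, and the median difference was −0.25 against −0.01. The difference was negative for 19 of 24 members, against 53.4% of all genes, and 6 members (25.0%, against 2.14% of all genes) had an unadjusted p under 0.05, all lower in MM1R. Without passage 22 there were 12 such members, beside 307 of all genes in that fit. Without passage 4 there were 9, beside 482 of all genes, against 302 in the main fit. The median difference lay between −0.33 and −0.16 over the passages left out in turn. The pair changes of the lines did not overlap for 11 members (45.8%, against 7.1% of all genes), 9 lower (3.72% of all genes) and 2 higher (3.38%) in MM1R. The list was chosen with earlier results of these data known, so that its counts are a description. PHLDA3 and EDA2R are not among its members.

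Besides MDM2 and TNFRSF10B, these 6 were AEN, a nuclease of apoptosis, GADD45A, a stress sensor, TIGAR, a regulator of glycolysis, and FAS, a death receptor. GADD45A was at 27.4, 29.9 and 31.4 CPM in untreated MM1S and at 54.2, 52.6 and 77.6 CPM after WA, and in MM1R at 29.5, 32.3 and 43.7 CPM untreated and at 38.7, 46.3 and 59.9 CPM after WA. It rose by 1.04 and 0.45 on the log2 scale, a difference of −0.58 (95% interval −0.92 to −0.25). FAS rose by 0.98 and 0.52 with a difference of −0.46 (−0.83 to −0.09), and TIGAR rose by 0.72 in MM1S and was at 0.16 in MM1R without passing, with a difference of −0.57 (−0.95 to −0.18). AEN was higher by 0.31 in MM1S and lower by 0.17 in MM1R, and only the former passed.

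For other p53 targets the interval of the difference included 0. CDKN1A, the inhibitor of cyclin-dependent kinases p21, rose from 42.4, 115 and 104 CPM to 182, 220 and 520 CPM in MM1S and from 218, 287 and 339 CPM to 474, 685 and 1330 CPM in MM1R. Its log2 fold changes of 1.79 and 1.45 differed by −0.34, with a 95% interval of −1.03 to 0.35. BBC3, the death activator PUMA, rose by 1.77 and 1.67, with an interval of the difference of −1.12 to 0.94. PMAIP1, the death activator NOXA, rose by 0.90 in MM1S and 1.30 in MM1R.

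Immediate early and AP-1 genes leaned to MM1R. Of 24 tested members, 17 rose in MM1R and 10 in MM1S, all 10 of these in both lines, while 14.9% and 12.9% of all tested genes rose, and MYC fell in both. Their median log2 fold changes were 1.27 (MM1R) and 0.77 (MM1S). The difference was positive for 18 of 24 members with a median of 0.28, while 53.4% of all genes had a negative difference. An unadjusted p under 0.05 was reached by 6 members (25.0%, against 2.14% of all genes), 5 higher in MM1R (EGR1, JUNB, FOS, KLF2 and JUND) and 1 lower (SRF, the factor that drives many of these genes). The list's pair medians were 0.89, 0.86 and 1.70 in MM1R and 0.97, 0.04 and 0.95 in MM1S, so that the lines overlapped, with passage 22 of MM1S lowest and passage 7 of MM1R highest. The median difference was 0.07 without passage 7, with 3 members at an unadjusted p under 0.05, beside 410 of all genes in that fit. It was 0.14 without passage 22, with 2 such members beside 307 of all genes.

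FOS was at 24.9, 7.68 and 1.46 CPM in untreated MM1R and at 50.5, 15.4 and 20 CPM after WA. In MM1S it was at 21.1, 24.8 and 4.18 CPM untreated and at 24.0, 10.6 and 8.57 CPM after WA. The untreated cultures spread widely within each line, and only passage 22 of MM1S was lower after WA. The difference was 1.68 with a wide 95% interval of 0.39 to 2.97. EGR1 rose in MM1R by 1.17 and was at −0.64 in MM1S without passing, with levels of at most 7.15 CPM. KLF2, a quiescence factor, rose by 1.66 in MM1R and 0.84 in MM1S, and FOSB by 3.26 and 1.72 with an interval of the difference of −0.17 to 3.24. ATF3 rose by 1.85 and 1.63, FOSL2 by 1.55 and 1.40 and MAFF by 1.19 and 1.13.

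The heat shock list had nearly equal medians in the lines. Of 41 tested members, 30 rose in MM1R and 31 in MM1S, 29 of them in both. Of all tested genes, 14.9% rose in MM1R, 12.9% in MM1S and 10.2% in both. Medians of the members' log2 fold changes stood at 1.28 (MM1R) and 1.30 (MM1S), with a median difference of 0.00. DNAJA4 was the only member with an unadjusted p under 0.05 (1 of 41, 2.44%, against 2.14% of all genes). DNAJA4 passed the filter on reads only through the treated MM1S cultures, so that its p is a description. HSP90AA1, the inducible HSP90, went from 671, 697 and 808 CPM to 7840, 6950 and 9930 CPM in MM1S and from 496, 606 and 785 CPM to 6000, 7410 and 11000 CPM in MM1R. Every treated culture lay far above every untreated one, and the lines overlapped within each treatment. Its log2 fold change was 3.49 in MM1S and 3.67 in MM1R, a difference of 0.18 ± 0.12 (95% interval −0.08 to 0.44). HSPA8, the constitutive HSC70, rose by 1.77 and 1.76 (interval −0.29 to 0.26), and HSP90AB1 by 1.48 and 1.45 (interval −0.26 to 0.21). Other chaperones had wider intervals, for example BAG3 (−0.23 to 1.46), DNAJB1 (−0.50 to 1.46) and SERPINH1, a collagen chaperone (−4.24 to 1.03).

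The inducible HSP70 genes are near-identical copies, and their reads were spread over 10 entries of the table, so that single entries are uncertain. Summed over HSPA1A and HSPA1B, an addition made after the data were seen, the level rose from 6.32, 7.13 and 4.42 CPM to 425, 236 and 631 CPM in MM1S and from 4.58, 6.04 and 5.01 CPM to 440, 491 and 855 CPM in MM1R. The log2 changes of the pairs were 5.96, 4.95 and 7.00 in MM1S and 6.44, 6.23 and 7.28 in MM1R, and they overlapped. HSPA6 rose by 10.08 in MM1S and 10.94 in MM1R, with an interval of the difference of −0.43 to 2.14. Whether it shares reads with its copy HSPA7 was not tested. HSPB8, a small heat shock protein that works with BAG3, held 0 reads in all 6 MM1S cultures, which allows up to 3 reads in each. In MM1R it held 7, 9 and 4 reads untreated and 16, 30 and 51 after WA, a ratio of 5 (95% interval 3.07 to 8.54 for counting error), and it rose there with an adjusted p of 0.0028 by edgeR. HSPB8 passed the filter on reads only through the treated MM1R cultures, so that its ratio and p are a description.

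Genes with a shared response were set apart by a stricter rule: called in both lines in the same direction, with a log2 fold change of at least 1 in size in both, and with the 95% interval of the difference within −1 and 1. Of 479 genes with such a fold change in both lines, 209 (1.48% of those tested) met it, 159 higher (1.13%) and 50 lower (0.355%), and 15 of the 209 belong to the heat shock list. The rule used these fold changes, so that the values of its members are a description.

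Among the leading genes of the shared rise were chaperones (HSP90AA1, HSPB1, HSPH1 and DNAJB2), ZFAND2A, which acts at the proteasome under stress, and HMOX1, the enzyme of heme breakdown. HMOX1 (chr22:35776354-35790207, plus strand) rose from 10.6, 8.99 and 13.1 CPM to 1250, 551 and 2150 CPM in MM1S and from 13.5, 17.9 and 25.6 CPM to 1040, 1550 and 3000 CPM in MM1R. The lowest treated culture in each line lay far above the highest untreated one. The log2 fold change was 6.76 and 6.53, with an interval of the difference of −0.85 to 0.40. HSPB1, a small heat shock protein, was higher in untreated MM1R (41.1, 64.0 and 63.1 CPM) than in untreated MM1S (21.6, 23.7 and 21.9 CPM), and it rose from these levels by 3.94 in MM1S and 3.88 in MM1R (interval −0.94 to 0.82). DEDD2, a death effector domain protein, rose by 2.34 and 2.28, and NEAT1, the RNA of paraspeckles, by 2.25 and 2.47. HSPH1 rose by 3.28 and 3.57, ZFAND2A by 3.03 and 3.23, DNAJB2 by 2.39 and 2.32 and AJM1 by 2.41 and 2.48, in MM1S and MM1R.

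The leading genes of the shared fall were expressed at lower levels. RTP4, an interferon-stimulated chaperone of receptors, fell from 13.6, 9.09 and 9.55 CPM to 2.87, 1.87 and 1.36 CPM in MM1S and from 11.7, 13.2 and 15.3 CPM to 2.45, 2.59 and 2.31 CPM in MM1R. Its log2 fold changes were −2.41 and −2.43, with an interval of the difference of −0.59 to 0.54. The chemokine receptor CCR2 had −2.32 and −2.25, the chemokine CXCL10 −1.77 and −1.76, and the developmental factor SOX2 −1.71 and −1.69. SPRY1, which restrains receptor tyrosine kinase signalling, had −1.61 and −1.60. The others were ABCD2, a transporter of peroxisomes, with −1.62 and −1.69, ZNF703 with −1.53 and −1.90, C11orf96 with −2.33 and −1.98, and the uncharacterised locus LOC107987437 with −2.44 and −2.42.

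**Figure D3:**
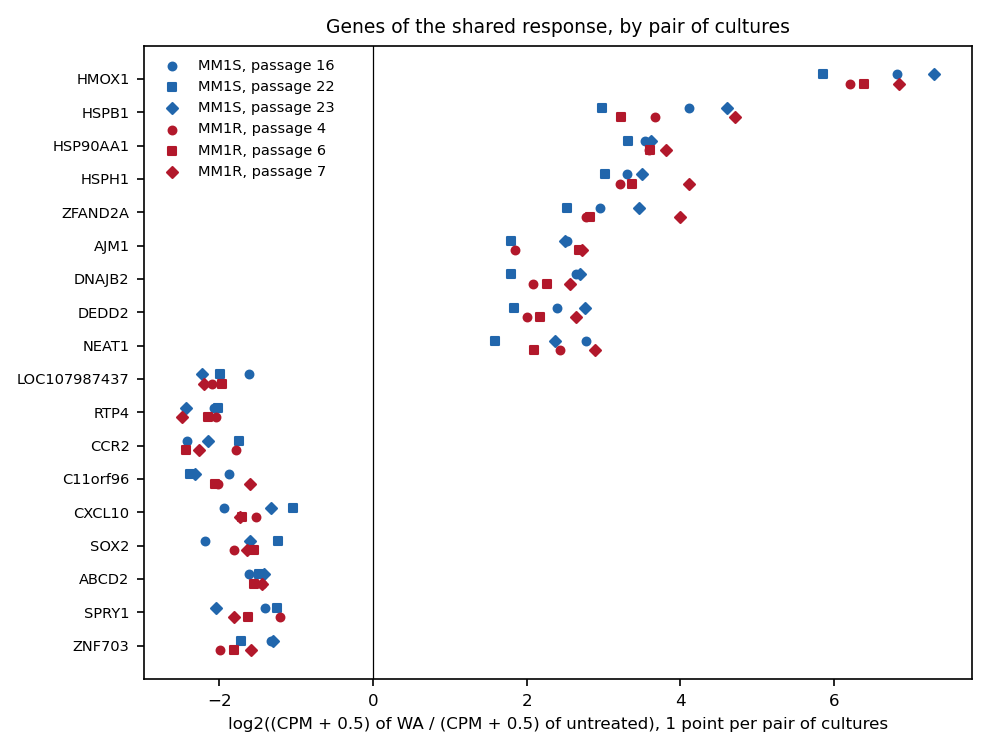
Log2 change of CPM with a pseudocount of 0.5, WA against untreated, for each pair of cultures (x axis) of MM1S (blue) and MM1R (red) in 18 genes named for the shared response (y axis). HMOX1 pairs lie between 5.86 and 7.31, and passage 22 of MM1S has the smallest change in each of the 9 genes that rose.

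The size of the response varied between passages, and the lines overlapped. Over the 1440 genes that rose in both lines, the median pair change was 0.57, 0.59 and 0.83 in MM1R (passages 4, 6 and 7) and 0.72, 0.53 and 0.69 in MM1S (passages 16, 22 and 23). Over the 1393 genes that fell in both, it was −0.48, −0.47 and −0.59 in MM1R and −0.56, −0.37 and −0.46 in MM1S. Passage 22 of MM1S was the weakest in both directions and passage 7 of MM1R the strongest.

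The NRF2 and ATF4 lists held many genes that rose in both lines. Of 24 tested NRF2 targets, 12 rose in MM1R and 13 in MM1S, 12 of them in both, while 14.9% and 12.9% of all tested genes rose. Of the differences, 20 of 24 were negative, against 53.4% of all genes, with a median of −0.09 that was −0.01 without passage 7. The pair medians were 0.21, 0.31 and 0.32 in MM1R and 0.36, 0.42 and 0.38 in MM1S, and they did not overlap. The medians of the fitted fold changes had the other order, 0.34 in MM1R and 0.29 in MM1S. OSGIN1, an oxidative stress inducible growth inhibitor, rose from 0.881, 0.517 and 0.447 CPM to 9.70, 6.41 and 7.04 CPM in MM1S and from 1.30, 1.43 and 1.17 CPM to 7.47, 9.51 and 7.67 CPM in MM1R. Its log2 fold changes of 3.64 and 2.65 differed by −0.99 (95% interval −1.70 to −0.29, unadjusted p = 0.0078). The levels of treated cultures overlapped, and the untreated ones did not. GCLM, a subunit of the enzyme that starts glutathione synthesis, rose by 1.28 and 1.09 and NQO1, a quinone reductase, by 1.11 and 1.03, both by the rule for a shared response. Of 30 tested genes of ATF4 and the integrated stress response, 21 rose in MM1R and 15 in MM1S, all 15 in both. Their differences were positive for 24 of 30 with a median of 0.13, while 53.4% of all genes had a negative difference. The pair medians of this list were 0.53, 0.66 and 1.32 in MM1R and 0.80, 0.07 and 1.24 in MM1S, and they overlapped. The sign of the median difference turned with single passages, at −0.21 without passage 22 and −0.08 without passage 7, and its highest value was 0.45 without passage 23. DDIT4, an inhibitor of mTORC1, rose by 3.48 and 3.29, with an interval of the difference of −1.11 to 1.48. ATF4 itself rose in MM1R by 0.64 and was at 0.38 in MM1S without passing, and the difference of 0.27 had an interval of −0.29 to 0.82.

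Most genes of ribosome biogenesis fell in both lines. Of 29 tested genes of ribosome biogenesis, 24 fell in MM1R and 22 in MM1S, while 14.5% and 11.8% of all tested genes fell, and all 22 were among the 24. Their median log2 fold changes were −0.75 (MM1R) and −0.54 (MM1S). The difference was negative for 27 of 29, against 53.4% of all genes, and none had an unadjusted p under 0.05. The pair medians were −0.59, −0.68 and −0.90 in MM1R and −0.82, −0.22 and −0.54 in MM1S, and they overlapped. RRS1, a factor of the large ribosomal subunit, had −1.51 and −1.37 and NOP16 −1.08 in both. Of 29 tested genes of cell cycle and mitosis, 16 fell in MM1R and 6 in MM1S. Pair medians of this list were −0.28, −0.19 and −0.36 in MM1R and −0.20, −0.03 and −0.20 in MM1S, and they overlapped. An unadjusted p under 0.05 was reached by 2 members (6.9%, against 2.14% of all genes), both lower in MM1R. PLK2, a stress kinase of the centrosome, was at 27.8, 30.5 and 30.8 CPM in untreated MM1R and at 15.4, 13.7 and 13.3 CPM after WA, and in MM1S at 49.9, 17.6 and 16.1 CPM untreated and at 33.4, 18.6 and 17.5 CPM after WA. It fell by 1.07 in MM1R, its change in MM1S of −0.15 did not pass, and the difference was −0.92 (95% interval −1.37 to −0.46, unadjusted p = 0.00057, adjusted p = 1.0 by edgeR).

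More cholesterol and fatty acid genes fell in MM1S than in MM1R. Of 28 tested members, 15 fell in MM1S and 5 in MM1R, all 5 of them in both lines, while 11.8% and 14.5% of all tested genes fell. The difference was positive for 24 of 28 members with a median of 0.11, while 53.4% of all genes had a negative difference. The pair medians were −0.13, −0.17 and −0.17 in MM1R and −0.43, −0.24 and −0.16 in MM1S, and they overlapped. An unadjusted p under 0.05 was reached by 2 members (7.14%, against 2.14% of all genes), 1 higher and 1 lower in MM1R. The lower one was ABCG1, a sterol exporter, with a log2 fold change of −0.13 in MM1R and 0.30 in MM1S, neither past the threshold, and a difference of −0.43 (95% interval −0.78 to −0.08, unadjusted p = 0.017). INSIG1, which holds back sterol synthesis, fell by 0.53 in MM1S and was at −0.19 in MM1R without passing, a difference of 0.33 (95% interval −0.03 to 0.69).

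**Figure D4:**
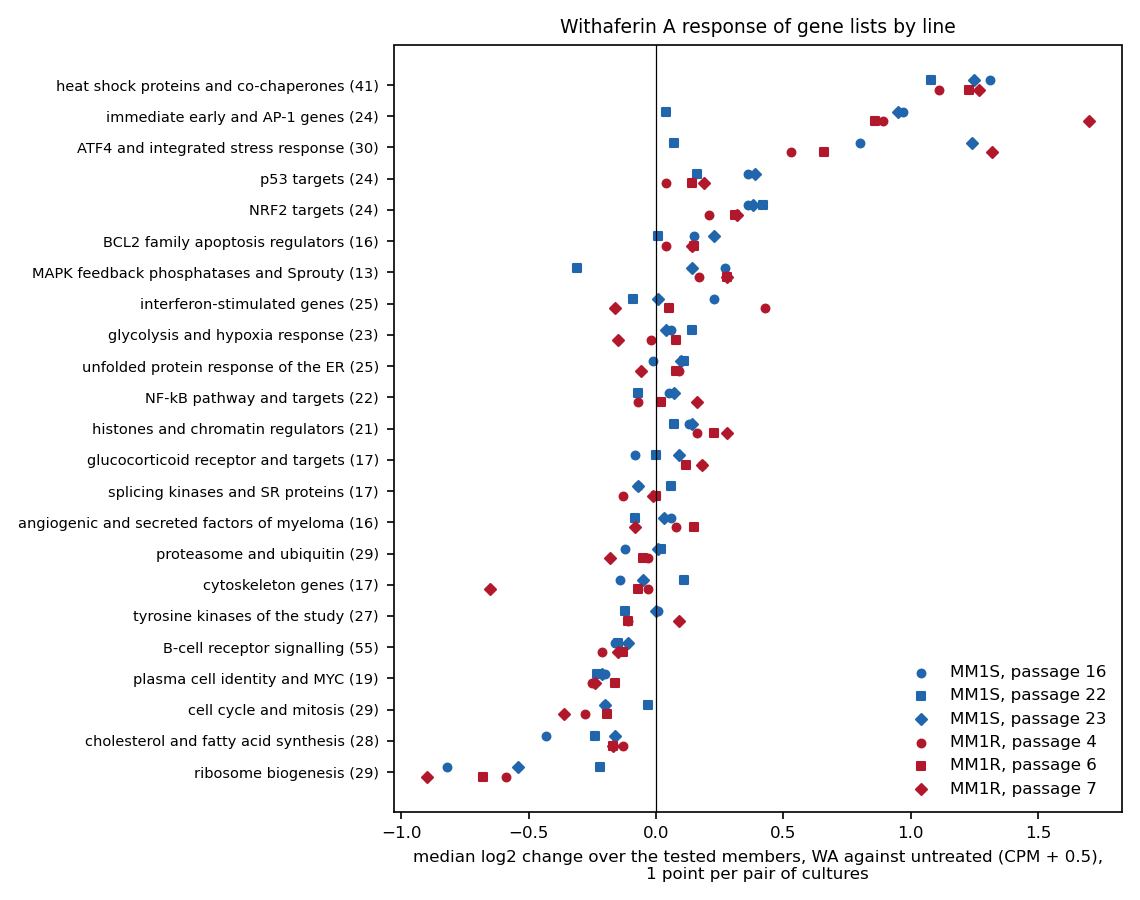
Median log2 change over the tested members of each gene list (y axis, number of tested members in parentheses) in each pair of cultures, MM1S in blue and MM1R in red. The heat shock pairs of both lines lie between 1.08 and 1.31, while the immediate early pairs run from 0.04 to 1.70.

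The histone and cytoskeleton lists held further members with an unadjusted p under 0.05 for the difference, against 2.14% of all genes. None of these members passed an adjusted p of 0.05 by edgeR. In 21 tested histones and chromatin regulators, 4 (19.0%) had an unadjusted p under 0.05, all higher in MM1R: HIST1H2AC with log2 fold changes of 3.12 and 1.95, HIST2H2BE with 1.71 and 0.10, HIST1H1C with 2.01 and 1.33, and KDM5B, a histone demethylase, with 0.69 and 0.12 in MM1R and MM1S. In 17 tested cytoskeleton genes, 3 (17.6%) did so, all lower in MM1R: ACTG1, ACTB and TUBA1B, the cytoplasmic actins and a tubulin. ACTG1 was at 3520, 3470 and 3680 CPM in untreated MM1S and at 4760, 5360 and 4590 CPM after WA, and in MM1R at 2520, 3430 and 4010 CPM untreated and at 2620, 3390 and 2530 CPM after WA. It rose in MM1S by 0.46 and did not pass in MM1R, where passage 7 carried most of the change of −0.21. The difference was −0.67 (95% interval −1.05 to −0.29, unadjusted p = 0.0015, adjusted p = 1.0 by edgeR).

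Among 27 tested kinases that the study followed, SRC alone had an unadjusted p under 0.05 (3.7%, against 2.14% of all genes). It was at 11.6, 10.3 and 8.63 CPM in untreated MM1R and at 7.04, 6.02 and 5.84 CPM after WA, and in MM1S at 7.31, 5.22 and 6.21 CPM untreated and at 7.53, 5.82 and 5.84 CPM after WA. The treated MM1R cultures lay at the level of MM1S. SRC fell by 0.69 in MM1R and was at 0.04 in MM1S, a difference of −0.73 (95% interval −1.15 to −0.30, unadjusted p = 0.0023). Of 55 tested genes of B-cell receptor signalling, 18 fell in MM1R and 14 in MM1S, 13 in both, while 14.5% and 11.8% of all tested genes fell, and the median difference was −0.02. PIK3CG, a kinase subunit, had −0.89 and −0.99, and PRKCD −0.88 and −0.65. Among 17 glucocorticoid receptor genes and targets, KLF9 rose by 1.15 in MM1R and 0.53 in MM1S, from 7.81, 8.12 and 5.42 CPM to 17.3, 17.6 and 12.5 CPM and from 6.32, 15 and 13 CPM to 11.8, 18.9 and 17.5 CPM. The difference was 0.63 (95% interval 0.20 to 1.05, unadjusted p = 0.0055). TSC22D3, the glucocorticoid-induced leucine zipper, rose by 3.12 and 2.74.

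In the remaining lists few members had an unadjusted p under 0.05 for the difference, as over all tested genes (2.14%). In lists of this size, so low a count is near that share and does not show equal responses. In the unfolded protein response (25 tested), the proteasome and ubiquitin list (29), NF-kB targets (22), interferon-stimulated genes (25), BCL2 family members (16), secreted factors (16), MAP kinase phosphatases and Sprouty genes (13), splicing kinases and SR proteins (17) and metallothioneins and zinc genes (4), no member had an unadjusted p under 0.05. The median differences lay between −0.11 and 0.13. In glycolysis and hypoxia genes (23 tested), PFKFB3, an activator of glycolysis, did so with a difference of −0.49 (95% interval −0.83 to −0.15), and among 20 genes ranked first for the difference between untreated lines, NLRP11 did so with 0.39 (0.02 to 0.77). Within these, XAF1, an interferon-stimulated death factor, rose by 2.84 in MM1R and 1.91 in MM1S, and IFIT5 fell by 3.56 and 3.10. Of 19 tested genes of plasma cell identity and MYC, CCND1 (cyclin D1) alone had an unadjusted p under 0.05, and it fell by 1.40 in MM1R and by 0.78 in MM1S, a difference of −0.62 (−1.05 to −0.18). IRF4, the plasma cell factor on which myeloma depends, fell by 0.95 in MM1R and 0.74 in MM1S (interval of the difference −0.56 to 0.13), and MYC by 1.35 and 1.23 (interval −1.42 to 1.18). MCL1, a survival factor of plasma cells, rose by 0.53 and 0.37.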

How the data were processed

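Total RNA of 12 cultures was sequenced, 3 in each of 4 groups. The authors deposited raw counts of reads per gene from STAR 2.7.3a on hg19, not normalized; the annotation and strand setting are not given in the sources used here, so that overlapping and antisense genes cannot be told apart. A deposited table of the same counts divided by size factors was not used. Groups and passage numbers came from the labels.

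Counts were analysed in R 4.3.3. Genes were kept by filterByExpr over the 4 groups (minimum count 10), and TMM factors scaled the libraries. The edgeR 4.0.16 quasi-likelihood test (non-legacy form, Benjamini-Hochberg adjusted p of 0.05 over all 14085 genes, two-sided) was run in 1 fit of all 12 libraries with 6 passage blocks within line and 1 WA term per line. Intervals are at 95% and SE are from the fit, and 44 genes had no finite SE. For edgeR the fold changes use its prior count. DESeq2 1.42.0 and limma 3.58.1 (voom) were alternatives. The study's methods name DESeq2. The script for the tests was checked on simulated data.

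Total counts of 17625110 to 19368343 per culture limit the precision of genes with few reads. Reads carry no molecular identifiers, so that intervals of read ratios and the limit of 3 reads cover counting error only. Between replicates, chi-square per degree of freedom was 8.06 or more (1 would be sampling noise alone), so that all 12 cultures were used. The passage number pairs the UT and WA culture of a line by the labels. In the check, deviations from the group mean correlated between the cultures of a passage at 0.46, 0.27 and 0.28 in MM1R (4, 6 and 7) and at 0.78, 0.28 and 0.53 in MM1S (16, 22 and 23). The UT culture of MM1S passage 22 correlated better with the WA culture of another passage (0.38), and the other 5 UT cultures best with their own.

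Members and gene lists were chosen with earlier results of these data known. Genes are named by the smallest p of the difference (5 per direction at a mean of at least 1 CPM), by the size of the shared response (10 per direction), within each list by the 2 smallest p and as examples called in both lines, and BTK and NR3C1 always. Others are named as chosen after their values were seen: FHL2, HSPB8, HSPA1A and HSPA1B, the listed p53, immediate early and chaperone genes that did not pass in both lines, and members that follow from a count in the text. Pair changes use CPM with a pseudocount of 0.5. Gene positions are from GENCODE on GRCh37. Promoter windows are from RefSeq (GRCh38.p14), and none was matched for PHLDA3. A few genes that these rules name are not reported here.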

Additional observations from a re-analysis of the deposited data

Results flagged for a closer look

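The 6 genes below are listed because DESeq2 with passage as block tested the difference between the lines directly and called it at an adjusted p of 0.05. On the log2 scale, MM1R minus MM1S, the DESeq2 difference was −5.16 for DNAJA4, −1.57 for PHLDA3, −1.06 for EDA2R, −0.84 for TNFRSF10B, −0.65 for MDM2 and 0.70 for GADD45B. The pair changes of MM1R and MM1S did not overlap in any of the 6, with 3 pairs in each line, against 7.1% of all tested genes. The 6 were picked by this same difference, so that the absence of overlap is a description. None of them passed edgeR's quasi-likelihood test (0 genes called, 302 at an unadjusted p under 0.05) or limma voom (0 genes called, 285 at an unadjusted p under 0.05), and DNAJA4 rests on 8 reads before and 8 after WA in MM1R, passed the filter on reads only through treated MM1S and was at −3.81 by edgeR without passage 4.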

How the results depend on the processing

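The difference between the lines gave 0 called genes with edgeR under its other settings, with 93 to 482 genes at an unadjusted p under 0.05, except without passage 22 (range 0 to 1 over the passages left out in turn). DESeq2 called 6. Without the replicate block, which pairs the cultures by passage, edgeR called 0 genes for the difference, 2019 for WA in MM1R and 1546 in MM1S, all of them among the genes called with the block, and the shared response held 110 genes. With the interval of the difference within 0.58, it held 85 genes. Leaving out a passage gave 2551 to 4353 genes in MM1R, 1321 to 4183 in MM1S and 150 to 227 with a shared response. The leave-outs remove both cultures of a passage and have fewer samples; for the other shifts the cause was not tested. The difference of BTK turned to −0.04 without passage 6 and −0.27 without passage 16 (highest 0.27, without passage 22), and that of NR3C1 to −0.12 without passage 4 and −0.01 without passage 16 (highest 0.22, without passage 7). For the named genes, 144 of the alternative values kept direction and side of the threshold, 7 crossed it in the same direction and 4 turned. Of the list medians, 320 alternative values stayed within the spread and 5 did not. No interval of the difference was computed from the DESeq2 fit, so that the shared response was not recomputed with it. With 3 pairs in each line, the median half-width of 0.40 limits what can be told apart, and genes of few reads are limited further.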
